A study of Rattus norvegicus with 6 samples.

Results

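The 39 genes described here encode voltage-gated potassium (Kv) channels of the rat dorsal root ganglion (DRG), the modifier subunits that join them and their auxiliary subunits. They were taken by symbol. The symbols read from the deposited table were 46 of the Kcna, Kcnc, Kcnd, Kcnf, Kcng, Kcnh, Kcnq, Kcns, Kcnv, Kcnab, Kcnip and Kcne families, 1 row was kept for each, and the 39 whose FPKM averaged 0.1 or more in the 6 libraries were kept as members. FPKM is a fragment count scaled to transcript length and library size, so it allows levels of different genes to be set side by side. The whole table has 43350 rows, of which 30540 passed the same limit and were tested. The 7 symbols under the limit were Kcna7, Kcna10, Kcne1, Kcng4, Kcnh3, Kcns2 and Kcnv2, of which Kcne1 had 0 counts in every library. Kcnh4 was the 1 member whose mean reached the limit in a single group, with 0.139 FPKM in CCI and 0.0923 FPKM in Sham.

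The study asked which transcripts change in the DRG when a nerve injury produces lasting pain-like behaviour. Chronic constriction injury (CCI) was made in male Sprague-Dawley rats by tying the sciatic nerve loosely, and in the Sham group the nerve was exposed without being tied. Lumbar ganglia of the operated side were taken 11 days after surgery from 3 CCI and 3 Sham rats, and their RNA was sequenced in 1 library each. Rats were chosen at random among those that behaved as their group should, so the CCI libraries stand for rats with pain-like signs. The labels list no treatment for Sham and mention pooling, while the methods describe 1 rat per sample. Each ganglion sample mixes all cells of several ganglia, and in such bulk RNA fewer cells of a type and less RNA per cell cannot be told apart.

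Total counts lay between 75423546 and 87615743 per library, and the members held 0.326% to 0.429% of them. Neuron markers were abundant in every library, with a summed level of 4418 to 4946 FPKM in CCI and 4704 to 5006 FPKM in Sham. All 12 nerve injury markers were called higher in CCI (against 2.77% of all rows tested). The study had already reported these genes as raised in these data, so the count is no separate check of the injury. Atf3, a transcription factor switched on in injured neurons, had 34.9, 20.3 and 16.2 FPKM in CCI 1, 2 and 3. In Sham 1, 2 and 3 it had 1.89, 2.36 and 2.11 FPKM. Skeletal muscle markers summed to 154.5 FPKM in Sham 1, against 5.42 and 22.0 FPKM in Sham 2 and 3 and 4.49 to 9.66 FPKM in CCI, so the members whose call changed without Sham 1 are named with the results.

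Kv channels open when a neuron depolarises and let potassium flow out, which ends the action potential and limits how often a neuron fires. Pore-forming subunits assemble in fours. Kv1 channels sit beside the nodes of Ranvier and on the axon initial segment, Kv2 channels mainly on cell bodies, Kv3 channels allow rapid firing, Kv4 channels carry the fast inactivating A-type current, and Kv7 channels carry the slow M-type current. The Kcnf, Kcng, Kcns and Kcnv subunits are called silent because they make no channel alone and modify Kv2 channels. Kcnh genes encode the EAG, ERG and ELK channels. Kv beta subunits (Kcnab) attach to Kv1, the calcium-binding KChIP proteins (Kcnip) attach to Kv4, and the small Kcne proteins join several of them.

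Most Kv transcripts did not pass the test 11 days after CCI, and those that did were mainly lower, by small amounts. Counts were compared with edgeR's quasi-likelihood test over all 30540 rows. At an unadjusted p under 0.05, 10 of the 39 members were lower in CCI (25.6%, against 4.69% of all rows tested) and 2 were higher (5.13%, against 5.39%), while 27 did not pass. The 10 were Kcna1, Kcna4, Kcnc1, Kcnf1, Kcns1, Kcns3, Kcnh2, Kcnh7, Kcnab1 and Kcnip3, and the 2 were Kcnd1 and Kcng1. With the further limit that the study used, 0.58 or more on the log2 scale in either direction, 3 members were called lower (7.69%, against 1.35% of rows) and 0 were called higher (against 2.77% of rows). The 3 were Kcnip3, Kcnh7 and Kcns3. These calls come from the fit made here, and whether the study's own list holds them was not checked.

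The log2 fold change, CCI minus Sham, had a median of -0.13 over the 39 members and of 0.0077 over all rows tested, and was negative in 27 members (69.2%, against 48.6% of rows). In 10 members every CCI library lay below every Sham library (25.6%, against 7.24% of rows), and in 1, Kcng1, every CCI library lay above (against 9.41% of rows). After Benjamini-Hochberg adjustment 0 members were under 0.05 with edgeR (against 0.0753% of rows), the lowest adjusted p being 0.11 for Kcnh7. DESeq2 with the same adjustment put 7 members under 0.05 (against 2.55% of rows), namely Kcna1, Kcna4, Kcnc1, Kcnh7, Kcns3, Kcnab1 and Kcnip3, all lower in CCI. Limma put 0 members under it, both on log2(FPKM + 0.1) (against 0.0851% of rows) and on log2(FPKM + 1) (against 0.0655% of rows). A permutation test of 3 libraries against 3 cannot go below p = 0.1, so all p-values come from fits across all rows.

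**Figure D1:**
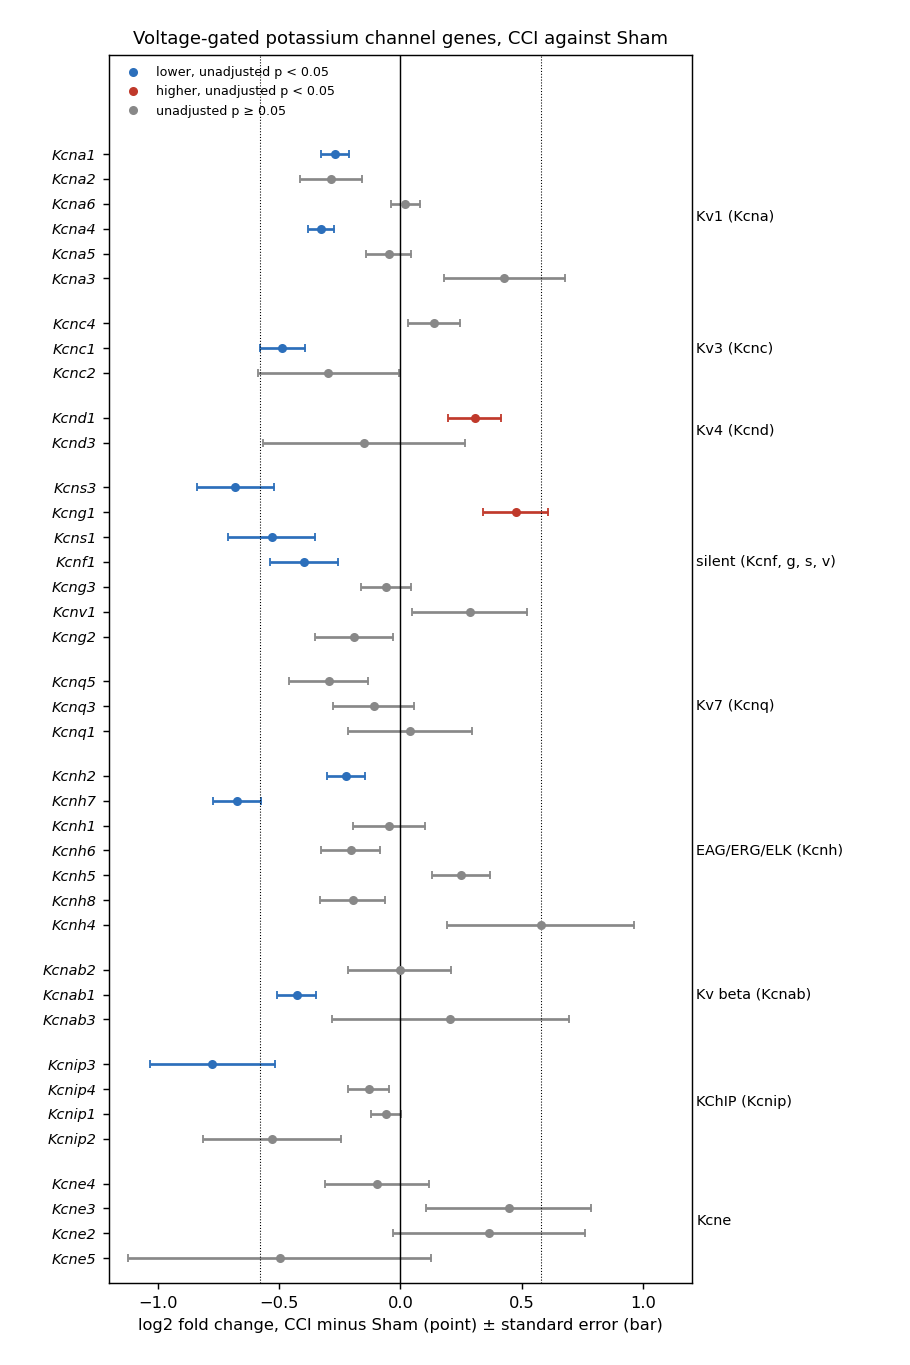
Log2 fold change of CCI against Sham for each of the 39 members (point) with its standard error (bar), ordered by subunit family and, within a family, by mean FPKM; dotted lines mark the limit of 0.58. Blue points are the 10 lower members at an unadjusted p under 0.05, red points the 2 higher ones, and grey points the other 27; the points of Kcnip3, Kcnh7 and Kcns3 lie beyond the lower limit.

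Among Kv1 genes, 2 of 6 were lower in CCI. Kcna1, which encodes Kv1.1, had the highest level of any member, with 95.6, 104.0 and 107.8 FPKM in CCI 1, 2 and 3 and 122.2, 121.1 and 123.4 FPKM in Sham 1, 2 and 3. All CCI libraries were below all Sham libraries, with a log2 fold change of -0.27 ± 0.06 (SE, n = 3 per group, unadjusted p = 0.00277 and adjusted p = 0.205 with edgeR). The row that stands for Kcna1 holds 26.5% of the counts given to that symbol. Another row of the symbol, close by on the same strand, held more counts and was lower too, with 112.2 ± 4.05 FPKM in CCI and 138.0 ± 4.06 FPKM in Sham (SD, n = 3) and a log2 fold change of -0.31.

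Kcna2, whose product Kv1.2 pairs with Kv1.1 in axons, came second among the channel genes. Its levels were 41.5, 51.1 and 56.2 FPKM in CCI and 60.7, 53.3 and 65.4 FPKM in Sham, so that Sham 2 lay inside the CCI range, and it missed the limit with a log2 fold change of -0.29 ± 0.13 (SE) and an unadjusted p of 0.0605. It depended on single libraries, with -0.18 (unadjusted p = 0.143) without CCI 1, -0.38 (unadjusted p = 0.0266) without CCI 3 and -0.36 (unadjusted p = 0.0399) without Sham 2. Kcna4, which encodes the inactivating Kv1.4 found in small sensory neurons, had 8.34, 7.83 and 7.80 FPKM in CCI and 9.76, 9.91 and 10.1 FPKM in Sham. Its groups were far apart for their spread, and at a log2 fold change of -0.33 ± 0.05 (SE) its unadjusted p of 0.000615 was the second lowest of the members.

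The other Kv1 genes did not pass. Kcna6 was level at 20.6 ± 0.740 FPKM in CCI and 20.0 ± 0.833 FPKM in Sham (SD, n = 3), and Kcna5 at 3.00 ± 0.172 and 3.07 ± 0.205 FPKM. Kcna3, on a row that also carries a second gene name, had 3.21 ± 0.687 FPKM in CCI and 2.37 ± 0.771 FPKM in Sham, a log2 fold change of 0.43 that was 0.72 when Sham 1 was left out, where its unadjusted p was 0.0118.

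The silent subunits gave the widest mix of directions, with 3 of 7 lower and 1 higher. Kcns3, which encodes Kv9.3, was one of the 3 genes beyond the fold limit. It had 5.28, 7.89 and 6.90 FPKM in CCI 1, 2 and 3 and 9.38, 10.7 and 11.7 FPKM in Sham 1, 2 and 3, a log2 fold change of -0.68 ± 0.16 (SE, n = 3 per group, unadjusted p = 0.00428, adjusted p = 0.235 with edgeR). The groups did not overlap, although CCI 2 and Sham 1 lay close to each other.

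Kcns1, which encodes Kv9.1 and is known from large sensory neurons, had 5.75, 7.60 and 6.12 FPKM in CCI and 8.09, 8.14 and 11.6 FPKM in Sham, a log2 fold change of -0.53 ± 0.18 (SE, unadjusted p = 0.0222). Sham 3 stood above the rest, and without it the log2 fold change was -0.33 with an unadjusted p of 0.0518. Kcnf1, the Kv5.1 subunit, had 2.91, 3.14 and 3.94 FPKM in CCI and 4.11, 4.16 and 4.74 FPKM in Sham, where CCI 3 nearly reached the lowest Sham library (log2 fold change -0.40 ± 0.14, SE, unadjusted p = 0.0271).

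Kcng1, which encodes Kv6.1, went the other way. It had 8.58, 10.3 and 8.74 FPKM in CCI and 6.05, 5.89 and 7.72 FPKM in Sham. Every CCI library was above every Sham library, with a log2 fold change of 0.48 ± 0.13 (SE, n = 3 per group, unadjusted p = 0.0105, adjusted p = 0.309 with edgeR). The remaining silent subunits did not pass, with log2 fold changes of -0.06 for Kcng3, -0.19 for Kcng2 and 0.29 for Kcnv1. Kcnv1 had 3.21 FPKM in Sham 1 against 2.00 and 1.77 FPKM in Sham 2 and 3, and without Sham 1 its log2 fold change was 0.58 with an unadjusted p of 0.0124.

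Of the 3 Kv3 genes described, 1 was lower. Kcnc4, which encodes Kv3.4 and has the highest level of them, was not, with 17.8, 19.3 and 21.9 FPKM in CCI and 16.6, 16.5 and 20.0 FPKM in Sham, where the groups overlapped (log2 fold change 0.14 ± 0.11, SE, unadjusted p = 0.247). Kcnc1, which encodes Kv3.1, had 4.13, 4.72 and 4.51 FPKM in CCI and 6.02, 5.61 and 6.86 FPKM in Sham. All CCI libraries were below all Sham libraries, and the log2 fold change of -0.49 ± 0.09 (SE) had an unadjusted p of 0.0015. Kcnc2 spread too widely to pass, from 1.65 to 2.69 FPKM in CCI and from 2.14 to 3.98 FPKM in Sham.

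Kcnd1 and Kcnd3 encode Kv4.1 and Kv4.3, pores of the A-type current. Kcnd1 was the second member that was higher in CCI, with 24.6, 29.6 and 29.4 FPKM in CCI and 21.6, 25.1 and 20.2 FPKM in Sham. Sham 2 was above CCI 1, so the groups overlapped, and the log2 fold change was 0.31 ± 0.11 (SE, unadjusted p = 0.0277), while without Sham 1 it was 0.28 (unadjusted p = 0.0797). Kcnd3 had 14.8, 8.26 and 17.6 FPKM in CCI and 19.3, 7.25 and 18.1 FPKM in Sham. It was low in 1 library of each group, CCI 2 and Sham 2, which left a log2 fold change of -0.15 with a standard error of 0.42. The row holds 66.6% of the symbol's counts, and the other Kcnd3 rows showed no drop of that size in these 2 libraries. The next most abundant one had 1.89, 1.90 and 2.33 FPKM in CCI and 2.19, 2.10 and 2.39 FPKM in Sham. On another, CCI 2 and Sham 2 were again lowest of their groups, with 1.81, 1.62 and 2.13 FPKM in CCI and 2.18, 1.71 and 2.06 FPKM in Sham. A further row, on the opposite strand, had 1.53, 1.63 and 1.66 FPKM in CCI and 2.09, 1.95 and 1.76 FPKM in Sham. Every CCI library was below every Sham library there (log2 fold change -0.28, unadjusted p = 0.0135 with edgeR), while the remaining Kcnd3 rows did not pass.

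The KChIP proteins bind Kv4 channels and set how many reach the membrane. Kcnip3, which encodes KChIP3 (also called DREAM, a calcium-dependent repressor of transcription), had the most negative log2 fold change of all members. It had 10.1, 19.9 and 20.8 FPKM in CCI 1, 2 and 3 and 27.1, 30.9 and 28.0 FPKM in Sham 1, 2 and 3. The Sham libraries lay close together and all CCI libraries were below them, with CCI 1 well under CCI 2 and 3. The log2 fold change was -0.78 ± 0.26 (SE, n = 3 per group, unadjusted p = 0.0212, adjusted p = 0.386 with edgeR). Without CCI 1 it was smaller, at -0.51, with a lower unadjusted p of 0.00088. Without Sham 2 it was -0.72 with an unadjusted p of 0.0598.

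A second row named Kcnip3 lies within the same span on the opposite strand, with 1.46, 1.19 and 1.32 FPKM in CCI and 2.37, 1.77 and 2.00 FPKM in Sham. It was lower too, with a log2 fold change of -0.64 and an unadjusted p of 0.00744. Whether the counting used strand is not given in the sources used here, so reads of the 2 rows may be shared. Kcnip4 was next in level, with 13.2, 15.3 and 16.2 FPKM in CCI and 16.2, 16.0 and 16.2 FPKM in Sham, and did not pass (log2 fold change -0.13 ± 0.08, SE, unadjusted p = 0.168). Neither did Kcnip1, at -0.06, or Kcnip2, at -0.53, whose level in CCI 3 was 2.95 FPKM against 5.49 to 7.80 FPKM in the other libraries.

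Among Kcnh genes, 2 of 7 were lower. Kcnh2, which encodes ERG1, had 21.1, 21.9 and 23.3 FPKM in CCI and 23.8, 24.9 and 27.9 FPKM in Sham, a small step between groups that did not overlap (log2 fold change -0.22 ± 0.08, SE, unadjusted p = 0.0269). Kcnh7, which encodes ERG3, had 9.57, 11.4 and 12.5 FPKM in CCI 1, 2 and 3 and 17.9, 18.0 and 16.9 FPKM in Sham 1, 2 and 3. The groups stood well apart, at 11.2 ± 1.49 FPKM against 17.6 ± 0.621 FPKM (SD, n = 3). Its log2 fold change of -0.67 ± 0.10 (SE) had the lowest p of all members, 0.000332 unadjusted and 0.11 adjusted with edgeR.

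The remaining 5 Kcnh genes did not pass. Kcnh1 and Kcnh5, the EAG channels, had log2 fold changes of -0.05 and 0.25, Kcnh6 (ERG2) had -0.21 and was under an unadjusted p of 0.05 without Sham 1, and Kcnh8 and Kcnh4, the ELK channels, had -0.20 and 0.58. The last value rests on 22 to 61 counts per library.

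For Kcnip3, Kcnh7 and Kcns3, the 3 called genes, the sequence around the start of the gene is shown, since these are the members that passed the fold limit. The rows of the deposited table place them at chromosome 3 from 120022517 to 120076788, chromosome 3 from 48661554 to 49168708 and chromosome 6 from 36764044 to 36821637, all on the minus strand of the genome the authors call V101. The sequences are those of RefSeq on a different build, GRCr8, and run from 250 bases before to 50 bases after the start, 5′ to 3′ on the minus strand, at chr3:135195361-135195660, chr3:68230622-68230921 and chr6:39584056-39584355. Capitals mark the GC box, a binding element of the factor Sp1 with the letters GGGCGG, on either strand.
Kcnip3: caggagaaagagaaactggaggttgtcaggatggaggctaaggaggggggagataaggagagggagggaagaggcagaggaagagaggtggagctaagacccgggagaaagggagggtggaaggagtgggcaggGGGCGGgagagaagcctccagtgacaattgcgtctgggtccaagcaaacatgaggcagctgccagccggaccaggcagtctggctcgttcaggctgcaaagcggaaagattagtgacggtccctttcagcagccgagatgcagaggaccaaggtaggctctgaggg
Kcnh7: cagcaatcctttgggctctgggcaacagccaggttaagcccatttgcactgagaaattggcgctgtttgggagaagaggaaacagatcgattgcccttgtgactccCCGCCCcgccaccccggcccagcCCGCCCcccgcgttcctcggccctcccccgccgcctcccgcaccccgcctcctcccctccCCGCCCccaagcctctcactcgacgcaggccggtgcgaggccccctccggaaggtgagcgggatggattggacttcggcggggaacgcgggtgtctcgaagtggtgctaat
Kcns3: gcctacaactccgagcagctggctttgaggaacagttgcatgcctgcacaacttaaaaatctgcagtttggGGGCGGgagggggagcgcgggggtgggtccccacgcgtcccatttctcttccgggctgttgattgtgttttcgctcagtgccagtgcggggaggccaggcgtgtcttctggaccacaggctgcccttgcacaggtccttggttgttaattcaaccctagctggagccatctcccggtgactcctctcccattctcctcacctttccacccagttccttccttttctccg

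These stretches hold 1, 3 and 1 GC boxes, and 59%, 67.3% and 58.3% of their bases are G or C, against a median of 51.7% over the 33469 promoters of the table. Promoters were found for 30 of the 39 members, of which 19 hold a GC box (63.3%, against 33.1% of all promoters). The injury-induced factors of the AP-1 family bind TGANTCA, and CREB binds the cAMP response element TGACGTCA. On either strand 0 of the 30 member promoters hold the first (against 7.33% of all promoters) and 0 hold the second (against 1.83%), which says only that these letters do not occur in these windows. The members without an entry were Kcna1, Kcnd1, Kcne2, Kcng1, Kcnh2, Kcnip4, Kcnq1, Kcnq3 and Kcnv1.

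None of the 3 Kv7 genes described passed the test with all 6 libraries. Kcnq5 had 11.6, 12.2 and 8.20 FPKM in CCI and 14.2, 11.3 and 13.3 FPKM in Sham, with overlap (log2 fold change -0.29 ± 0.16, SE, unadjusted p = 0.115), and without CCI 3, its lowest library, the value was -0.14 (unadjusted p = 0.248). Kcnq3, which encodes a subunit of the M-type current, had 7.65, 5.08 and 5.28 FPKM in CCI and 6.81, 6.25 and 6.17 FPKM in Sham. CCI 1 was its highest library and CCI 2 and 3 its lowest, and the log2 fold change was -0.11 ± 0.17 (SE, unadjusted p = 0.532). Without CCI 1 it was -0.33 (unadjusted p = 0.0100), which passes. The row that stands for Kcnq3 holds 84.9% of the counts given to the symbol, which is on 8 rows. With these rows summed and all 6 libraries, the log2 fold change was -0.0017 (unadjusted p = 0.992 with edgeR). Kcnq1 was low on its protein-coding row, at 0.255 FPKM in CCI and 0.246 FPKM in Sham, with 75 to 113 counts per library. That row holds 1.09% of the counts given to its symbol.

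The Kv beta subunits differed from each other. Kcnab2, the most abundant auxiliary subunit, had 38.9, 41.2 and 45.3 FPKM in CCI and 45.8, 27.7 and 50.9 FPKM in Sham. Sham 2 was far below the other Sham libraries, and the log2 fold change was -0.0034 ± 0.21 (SE). Kcnab1 had 21.8, 24.0 and 25.1 FPKM in CCI and 29.1, 33.5 and 31.7 FPKM in Sham, with no overlap, and its log2 fold change of -0.43 ± 0.08 (SE, n = 3 per group) had an unadjusted p of 0.00143 and an adjusted p of 0.163 with edgeR. Kcnab3 was scarce, at 0.149 to 0.551 FPKM.

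None of the 4 Kcne genes passed, and none was abundant. Kcne4 had 2.91, 3.41 and 3.52 FPKM in CCI and 2.69, 3.90 and 3.80 FPKM in Sham, and Kcne3 had 2.17, 2.68 and 1.34 FPKM in CCI and 1.38, 2.05 and 1.07 FPKM in Sham. Both overlapped between groups. Kcne2 and Kcne5 had means of 0.624 and 0.347 FPKM over the 6 libraries, and Kcne5 rested on 9 to 28 counts per library.

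**Figure D2:**
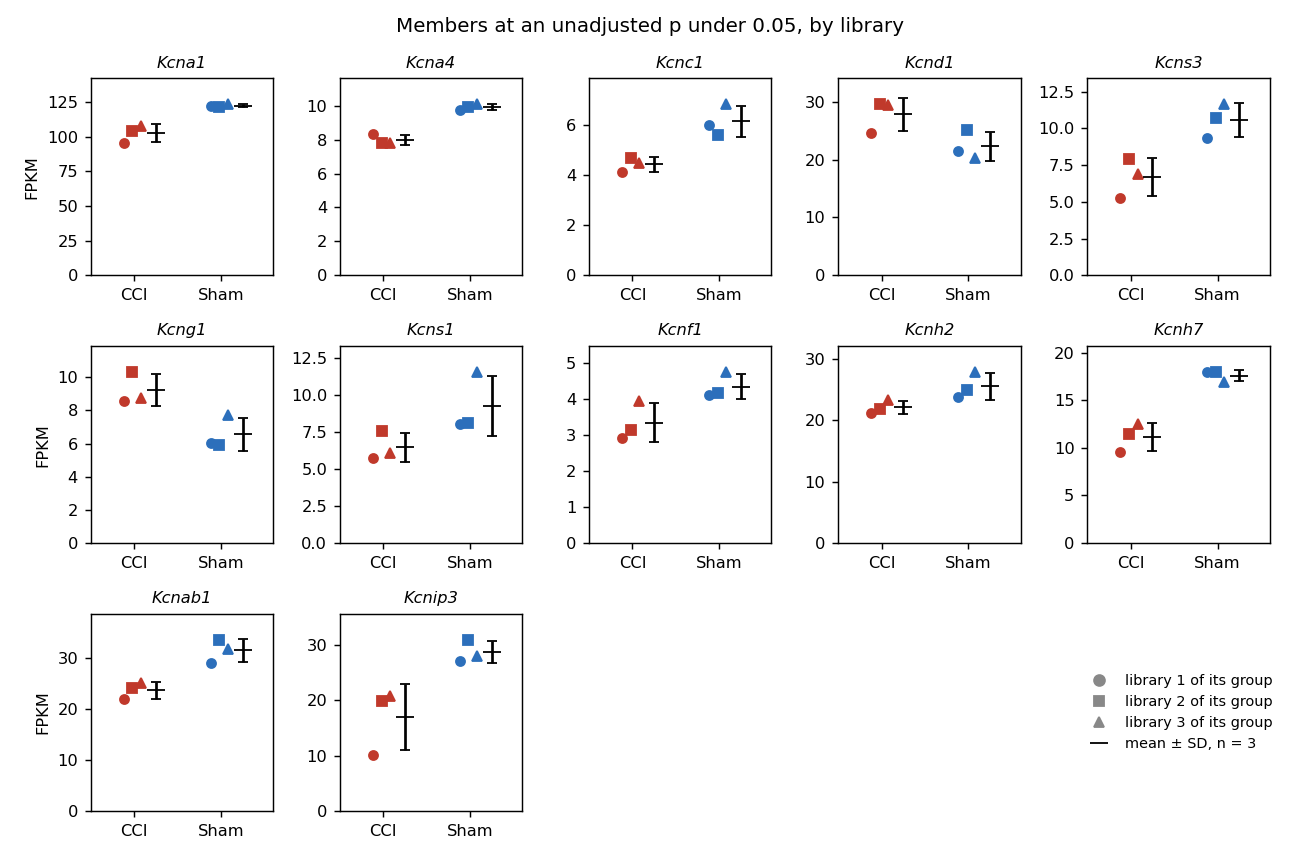
FPKM in each of the 6 libraries for the 12 members at an unadjusted p under 0.05, with CCI in red, Sham in blue, a symbol for each library of a group, and the mean ± SD (n = 3) in black beside them; axes start at 0. In 10 of the panels the CCI points lie below the Sham points, in Kcng1 they lie above, and in Kcnd1 the groups overlap.

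The CCI libraries did not contribute evenly to these differences. CCI 1 was the lowest CCI library in 21 of the 39 members (53.8%, against 36.5% of all rows tested) and in 9 of the 10 lower members, the exception being Kcna4. Among all rows that were lower at an unadjusted p under 0.05 the share was 56.0%. CCI 1 was also the library with the strongest injury signal, where the injury markers summed to 553.1 FPKM. They summed to 374.2 and 326.1 FPKM in CCI 2 and 3 and 112.9 to 115.8 FPKM in Sham. CCI 1 stood apart in other markers too. In CCI 1, 2 and 3 macrophage markers summed to 87.7, 73.2 and 58.0 FPKM and fibroblast markers to 389.2, 684.9 and 605.3 FPKM. General neuron markers summed to 4928, 4946 and 4418 FPKM. Whether any of these bears on the Kv values of CCI 1 was not tested.

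Without CCI 1, 8 members were lower at an unadjusted p under 0.05, 7 of them among the 10 and the other Kcnq3. Kcnf1, Kcnh2 and Kcns1 no longer passed, and 0 members were called lower. The log2 fold changes in that fit were -0.576 for Kcnh7, just short of the fold limit, -0.54 for Kcns3 and -0.51 for Kcnip3. All 3 kept an unadjusted p under 0.05, which was 0.000184 for Kcnh7. Without CCI 2, 5 members were called lower, the 3 named and Kcnip2 and Kcns1. Without CCI 3, Kcna2 and Kcnh8 also passed as lower and Kcnh5 as higher, and Kcna2 did so without Sham 2 and Kcnh5 without Sham 3. The 7 members Kcna1, Kcna4, Kcnc1, Kcng1, Kcns3, Kcnh7 and Kcnab1 were under an unadjusted p of 0.05 whichever library was left out. The other 5 of the 12 exceeded it in at least 1 such fit, with highest unadjusted p-values of 0.0898 for Kcnf1, 0.0872 for Kcnd1, 0.0764 for Kcnh2, 0.0695 for Kcns1 and 0.0598 for Kcnip3. Of the 6 such fits, Kcnd1 was under the limit in 2, Kcnf1, Kcnh2 and Kcns1 in 3 each, and Kcnip3 in 5.

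**Figure D3:**
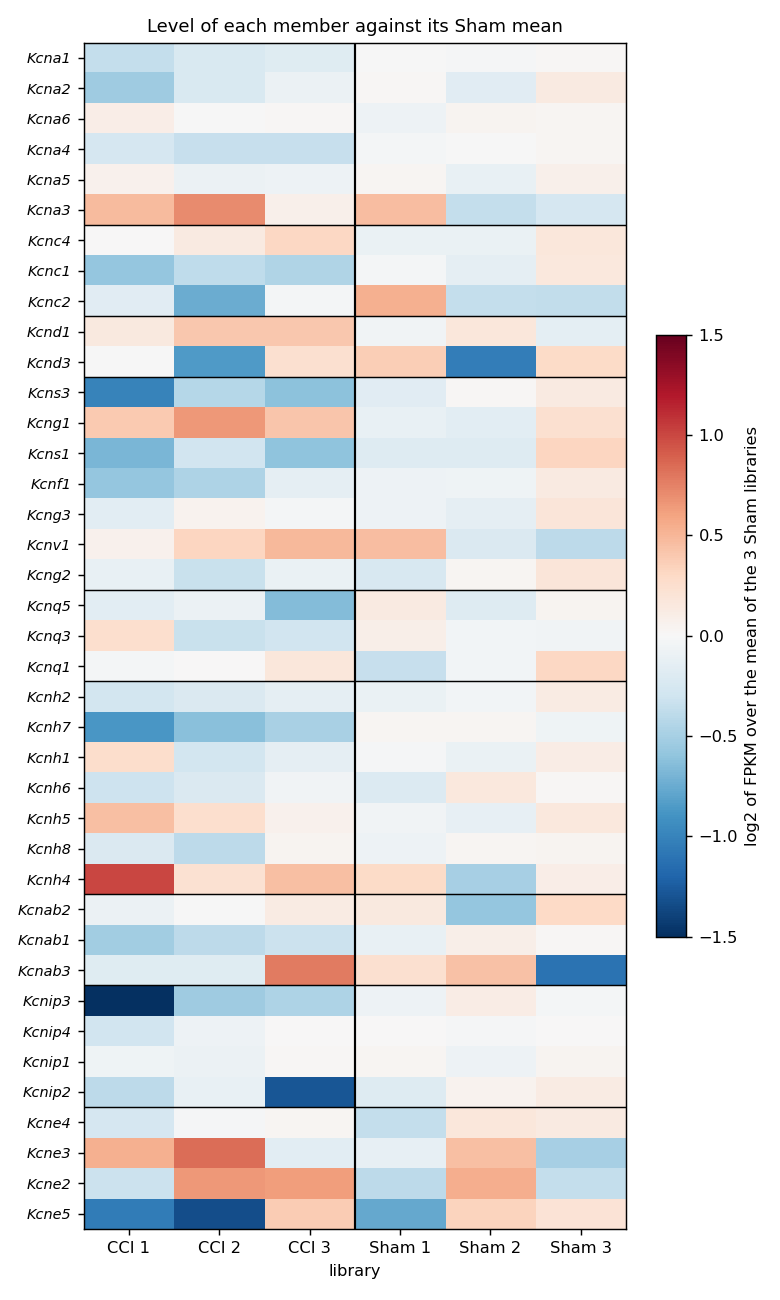
Log2 of the FPKM of each member in each library over the mean of the 3 Sham libraries, with members in rows ordered by family and libraries in columns; blue is below and red above the Sham mean. For Kcnip3, Kcns3 and Kcnh7 the deepest blue of the row lies in the CCI 1 column, and single off-colour cells show the low Kcnd3 values of CCI 2 and Sham 2 and the low Kcnip2 value of CCI 3.

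The pore-forming and silent subunits described number 28 genes. Their summed level was 336.9, 357.8 and 375.4 FPKM in CCI 1, 2 and 3 and 401.8, 381.5 and 419.6 FPKM in Sham 1, 2 and 3, so every CCI library was below every Sham library. Kv1 genes made up 52.4% ± 0.825 of the sum in CCI and 54.2% ± 0.702 in Sham (SD, n = 3). Kv4 genes made up 11.6% ± 0.973 and 9.26% ± 0.856, and Kv3 genes 7.39% ± 0.312 and 6.63% ± 0.269. For these 3 subfamilies the groups did not overlap. The shares of Kcnh, Kv7 and silent genes overlapped, with means of 14.5%, 4.77% and 9.35% in CCI and 15.5%, 4.88% and 9.50% in Sham. These shares are given as a description with no test, and the Kv4 share includes the uneven Kcnd3 values.

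**Figure D4:**
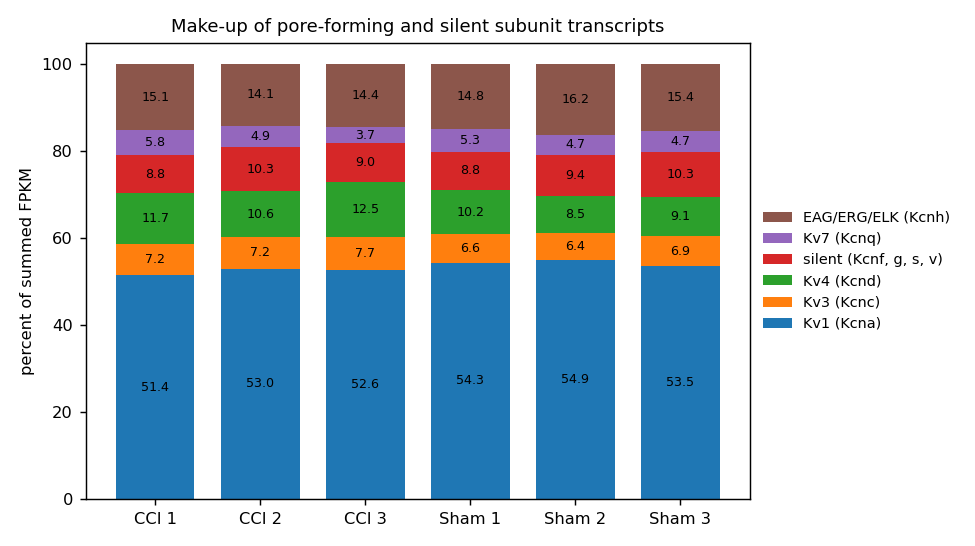
Share of each subfamily in the summed FPKM of the 28 pore-forming and silent members, in percent, for each library; the numbers in the bars are the shares. Kv1 genes hold 51.4% to 53.0% in CCI and 53.5% to 54.9% in Sham, and Kv4 genes hold 10.6% to 12.5% in CCI and 8.47% to 10.2% in Sham.

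Genes that place, carry or regulate Kv channels were read from 4 lists of 65 genes, of which 63 were found and 61 tested. At an unadjusted p under 0.05 with edgeR, 10 were lower (against 4.69% of all rows) and 6 higher (against 5.39%) in CCI. With the fold limit 0 were lower (against 1.35%) and 2 of the 61 higher (against 2.77%), about as frequent as over all rows. Without the fold limit the shares of the 61 that were lower and higher were both above those over all rows. The median log2 fold change of the 61 was -0.0019. Of 18 axonal clustering and scaffold genes, 5 were lower, namely the Kv1 complex protein Adam22 (-0.38), the secreted protein Lgi3 (-0.40) of the family that binds it, the adhesion molecules Cntn2 (-0.19) and Nfasc (-0.14), and the motor Kif5b (-0.18), as log2 fold changes, and 0 were higher.

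Of 14 further auxiliary and trafficking genes, 4 were lower and 1 higher. Dpp10, an auxiliary subunit of Kv4, had 14.1, 15.6 and 16.7 FPKM in CCI and 20.3, 20.4 and 19.6 FPKM in Sham (log2 fold change -0.40 ± 0.07, SE, unadjusted p = 0.000914). Its relative Dpp6 also fell, by 0.29 on the log2 scale, as did Amigo1, an auxiliary subunit of Kv2, by 0.28. The synaptic fusion protein genes Snap25 and Stx1a, whose products bind Kv channels, went in opposite directions, at -0.39 and 0.30.

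Of the 11 genes tested among the receptors and phosphoinositide enzymes that control Kv7 channels, 3 were higher and 0 lower. Bdkrb2, the bradykinin B2 receptor, was called higher, with 4.92, 4.61 and 3.51 FPKM in CCI and 2.57, 2.77 and 2.09 FPKM in Sham (log2 fold change 0.80 ± 0.16, SE, unadjusted p = 0.00207). The muscarinic receptor gene Chrm3 had a log2 fold change of 0.47, and Pip5k1b, which makes the lipid that keeps Kv7 channels open, 0.54. Of 18 transcription and chromatin regulators, Dnmt3b (0.95) and Ezh2 (0.57) were higher and Dnmt3a (-0.47) was lower. Dnmt3b was called, but at a level of 0.339 to 0.426 FPKM in CCI and 0.168 to 0.208 FPKM in Sham.

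Markers of some cell types also differed between CCI and Sham. Of 12 markers of large myelinated neurons, 7 were lower at an unadjusted p under 0.05 and 0 higher. Over all rows tested the shares at that limit were 4.69% lower and 5.39% higher. These markers had a median log2 fold change of -0.29 and none was at 0 in all libraries. Their summed level was 1012 to 1133 FPKM in CCI and 1308 to 1379 FPKM in Sham. Pvalb, the calcium-binding protein of muscle spindle afferents, had 60.5, 74.4 and 70.1 FPKM in CCI and 129.0, 94.8 and 104.2 FPKM in Sham. Nociceptor markers had a median of -0.15, with 4 of 12 lower and 3 higher, and general neuron markers a median of -0.04, with 2 lower and 2 higher. The part of these shifts in the Kv results was not tested.

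At the same limit macrophage markers were higher in 8 of 12 genes (against 5.39% of all rows tested) and 0 were lower (against 4.69%). Their summed level was 58.0 to 87.7 FPKM in CCI and 36.9 to 46.8 FPKM in Sham, with a median log2 fold change of 0.81. Schwann cell markers summed to 2648 to 3719 FPKM in CCI and 3339 to 3761 FPKM in Sham, and satellite glia markers to 1502 to 1680 and 1518 to 1662 FPKM, both overlapping, with 2 of 10 lower among the first and 1 of 8 higher among the second. Of the markers of T cells, endothelium, fibroblasts and smooth muscle, 1 of 4, 0 of 5, 0 of 5 and 3 of 6 tested were higher and 0 lower. Of 9 skeletal muscle markers 6 were lower. Their sum was 154.5 FPKM in Sham 1 and 22.0 FPKM in Sham 3, while 5.42 FPKM in Sham 2 lay inside the CCI range of 4.49 to 9.66 FPKM. The part of these shifts was not tested either. Without Sham 1, the library with muscle RNA, 11 members were lower at an unadjusted p under 0.05, among them all 10 named above and Kcnh6, and 3 were higher, namely Kcng1, Kcna3 and Kcnv1, with 4 called lower (Kcnip3, Kcnh7, Kcns3 and Kcns1) and 2 called higher (Kcna3 and Kcnv1).

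**Figure D5:**
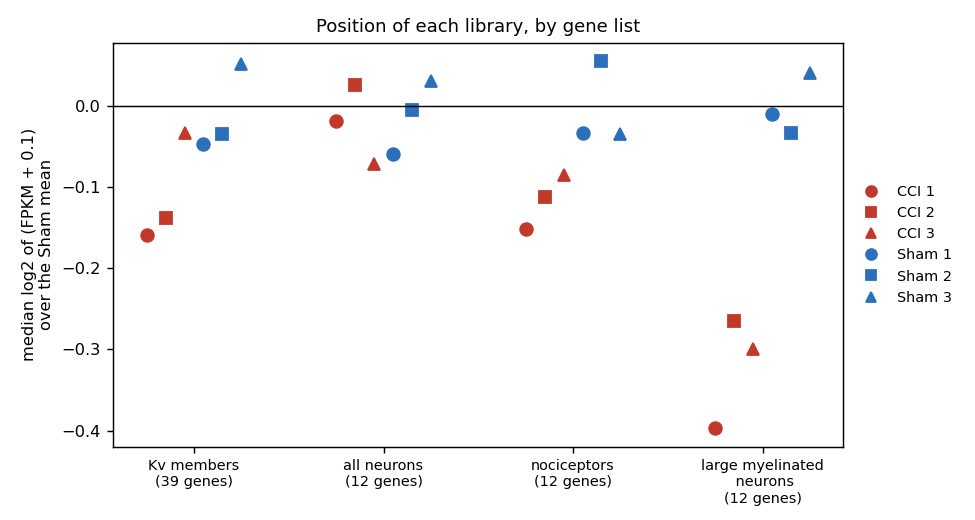
Median over a gene list of the log2 of (FPKM + 0.1) in a library over the Sham mean, for the 39 Kv members and for markers of all neurons, nociceptors and large myelinated neurons (12 genes each), with CCI in red and Sham in blue. CCI libraries lie at -0.16, -0.14 and -0.03 for the Kv members and at -0.40, -0.27 and -0.30 for large myelinated neuron markers, and the groups overlap for the Kv members and for markers of all neurons.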

How the data were processed

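The count values were deposited by the authors as whole reads per gene row and library, without normalization. The authors' FPKM values scale those counts to transcript length and library total, with a small constant in place of 0. The submitters' processing notes name HISAT2 (2.0) and StringTie (1.3.0). Whether strand was used is not given in the sources used here. Symbols joined in 1 row were split, and for each symbol a protein-coding row was preferred, and among those the row with most counts. The members and the lists of partner and marker genes were chosen with earlier results of these data known. A further 4 symbols of these families are not reported here and were left out of every count of members, while all rows were kept in the fits.

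Rows averaging 0.1 FPKM or more were tested with edgeR 4.0.16 (TMM scaling, glmQLFit and glmQLFTest, trended dispersion, 6 libraries, no covariate) in R 4.3.3, with Benjamini-Hochberg adjustment over all rows tested. Standard errors were taken as the fold change over the root of the F statistic. Called rows had an unadjusted p below 0.05 and differed by 0.58 or more on the log2 scale. DESeq2 1.42.0, limma 3.58.1 on log2(FPKM + 0.1) and on log2(FPKM + 1), other filters and scalings, protein-coding rows alone, summed rows of a symbol, a replicate block and leaving out each library were the alternatives. Libraries 1, 2 and 3 of the groups did not deviate together (correlations -0.0087, -0.017 and -0.046), so the numbers were not used as pairs. P-values set the difference between groups against the spread between these libraries, which the fits estimate with the help of all rows. Named in full are members at an unadjusted p under 0.05, and the 2 most abundant of each family. The tests were tried on simulated counts. Numeric sample columns left unused numbered 0. Promoters come from RefSeq (GRCr8), and the GC box was added to the motifs after the data were seen.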

Additional observations from a re-analysis of the deposited data

How the results depend on the processing

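The 12 settings other than leaving out a library, among them other filters, scalings and tools, gave 3 members called lower and 0 called higher each, and the 12 members at an unadjusted p under 0.05 were under it in all 12, with Kcna2 and Kcnip2 added by DESeq2. The median log2 fold change of the members lay between -0.18 and -0.10 over all alternatives. At an adjusted p under 0.05 the count of 0 members became 7 with DESeq2 and 1, Kcnh7, when protein-coding rows alone were fitted. In that edgeR fit fewer rows share the adjustment, and the unadjusted p of Kcnh7 was also lower, at 0.000173 against 0.000332. The parts of these changes were not separated. The 2 partner genes called became 1 at a mean FPKM of at least 0.5 and 1 with limma on either scale, and 3 with library totals alone and with protein-coding rows alone. Leaving out single libraries gave 0 to 5 members called lower, 0 to 2 called higher, 7 to 11 lower and 1 to 3 higher at an unadjusted p under 0.05, and 2 to 4 partner genes called, the 4 without CCI 2, CCI 3 or Sham 2. Sham 3 gave the 7, CCI 2 the 1 and Sham 1 the 3. With a replicate block 11 members were lower and 2 higher at that p, with Kcna2 added, and 3 were called lower. The difference in Kv1 share lay between -2.26 and -1.44 percentage points.

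Kcnab2 and Kcnd3, which are uneven within groups, changed sign. Kcnab2 had a log2 fold change of 0.011 with library totals alone, 0.056 and 0.054 with limma on log2(FPKM + 0.1) and log2(FPKM + 1), 0.043 with summed rows and 0.039 with the block, and -0.22 to 0.18 when a library was left out. Kcnd3 ranged from -0.48 to 0.11 when a library was left out. The cause was not tested. Members under 0.5 FPKM (4 genes) rest on few reads, with standard errors of 0.26 to 0.62 on the log2 scale.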
